A study of Mus musculus with 12 samples.

Results

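Heme synthesis genes were measured in fetal livers and fibroblasts of the mouse that carry the G2A allele of the proteasome ATPase Rpt2, and in their wild-type (WT) counterparts. The genes were taken by symbol: 9 in all, out of 23235 entries in the liver table and 24421 in the table of mouse embryonic fibroblasts (MEFs), and all 9 were present and passed the filter on low values in both. The enzymes are Alas2, Alad, Uros, Urod, Cpox, Ppox and Fech, and the others are Tmem14c and Slc25a38, proteins of the mitochondrial inner membrane. The groups were G2A livers (genotype Rpt2G2A/G2A, embryonic day E12.5, 3 libraries), WT livers (E12.5, 3 libraries), immortalized G2A MEFs (Rpt2G2A/G2A, 2 libraries) and immortalized WT MEFs (3 libraries), none of them treated. The livers came from 3 pairs of WT and G2A littermates, and whether each library is a single fetus is not stated. 1 more G2A MEF sample is labelled but matched no column and was not analysed here. Whether the MEF libraries came from separate lines or from cultures of 1 line is not given in the sources used here, so their p-values may measure technical spread. As background, the G2A change replaces the glycine of Rpt2 that carries its N-myristoyl lipid anchor, and the gene of Rpt2 is Psmc1.

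Heme is made in a chain of enzymes that begins and ends in mitochondria. Alas2, the red cell form of the first and rate-limiting enzyme, joins glycine and succinyl-CoA in the mitochondrial matrix, Alad, Uros and Urod act in the cytosol, and Cpox, Ppox and Fech finish the ring and insert iron in mitochondria. Slc25a38 brings glycine into mitochondria for the first step, and Tmem14c is needed for the porphyrin to reach the last enzymes. At this age the fetal liver is the main site of red cell formation, and red cell precursors make most of the heme in it.

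The promoters of these genes give the sequence context, since in red cell precursors many of them are known targets of the factors Gata1 and Klf1. RefSeq's promoter table (GRCm38.p6, 250 bases before to 50 after a start site) held 10 promoters for 8 of the 9 genes, with a pair each for Alad and Uros. A Gata motif was taken as AGATAA or, with another first letter, TGATAA on either strand. It stood in 3 of these 8 genes (Alas2, Uros and Cpox), or 3 of their 10 promoters, beside 18.6% of all 32851 promoters. A Klf motif was taken as CACCC on either strand and stood in 6 of the 8 genes, or 6 of their 10 promoters, beside 57.5% of all promoters. The motif shared by NFE2 and AP-1 (TGACTCA) was in none of the 8 and in 5.2% of all promoters. Shown are the 150 bases before the start site of the 3 genes with a Gata motif and of Tmem14c, the gene with the smallest p in liver. Letters are 5′ to 3′ on the gene's strand, with each Gata and Klf motif, or its reverse complement, in capitals.
Alas2: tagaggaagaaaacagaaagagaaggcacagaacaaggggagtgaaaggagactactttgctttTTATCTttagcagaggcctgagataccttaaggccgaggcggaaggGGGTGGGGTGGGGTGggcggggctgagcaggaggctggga
Cpox: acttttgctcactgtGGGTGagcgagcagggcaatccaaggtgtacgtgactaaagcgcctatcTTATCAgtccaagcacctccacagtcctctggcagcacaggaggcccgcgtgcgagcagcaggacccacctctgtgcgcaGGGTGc
Uros: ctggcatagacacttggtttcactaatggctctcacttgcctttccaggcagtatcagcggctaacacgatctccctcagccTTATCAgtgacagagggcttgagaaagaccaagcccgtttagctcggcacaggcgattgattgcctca
Tmem14c: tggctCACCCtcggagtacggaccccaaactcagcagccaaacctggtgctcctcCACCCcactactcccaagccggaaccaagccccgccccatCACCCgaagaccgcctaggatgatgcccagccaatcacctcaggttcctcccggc
These lie at chrX:150547267-150547416 (plus strand), chr16:58670058-58670207 (plus strand), chr7:133702501-133702650 (minus strand) and chr13:41016100-41016249 (plus strand) of GRCm38.p6, in that order. The Uros stretch belongs to the more downstream of its start sites; as background, mouse Uros has an erythroid promoter downstream of its housekeeping promoter, and gene-level values do not separate their transcripts. In Alas2 the Gata motif begins 86 bases before the start site, and 3 adjoining Klf motifs begin 40, 35 and 30 bases before it. Cpox also held its Gata motif 86 bases before the start, with another 5 bases after it, and Uros 68 bases before. Tmem14c held Klf motifs 145, 95 and 55 bases before the start. A match is a description of the letters and shows no binding.

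The liver values are FPKM (read fragments scaled to transcript length and to library depth), which allow levels of different genes to be set side by side, at a depth of sequencing that is unknown. MEF values are reads per gene divided by 1 size factor per library, from 37261504 and 37051959 gene reads in the G2A libraries and 36415586 to 37695116 in the WT libraries. One G2A liver was unlike the rest of its group. G2A livers 1, 2 and 3 lay at -30.6, -34.9 and 7.9 on principal component 1 (37.9% of the variance), against 13.3 to 23.3 for the WT livers. Hepatoblast markers were abundant in every liver (11 genes with a summed level of 11280 to 16203 FPKM in G2A and 11352 to 14058 FPKM in WT livers). In MEFs the fibroblast markers were abundant (10 genes with 414490 and 433565 summed normalized reads in G2A and 599448 to 1028930 in WT libraries), while all 4 adult globins, Slc4a1 and Gata1 were at 0 reads in every MEF library. Psmc1 itself was at 151, 145 and 161 FPKM in G2A livers 1, 2 and 3, against 178, 181 and 178 FPKM in WT livers 1, 2 and 3 (log2 fold change -0.23, limma adjusted p = 0.114). In MEFs it was at 10658 and 10913 normalized reads in G2A libraries 1 and 2, against 7393, 8589 and 6485 in WT libraries 1, 2 and 3 (log2 fold change 0.54, limma adjusted p = 0.282). Such levels cannot show which allele a library carries.

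In liver, all 9 heme synthesis mRNAs had a lower mean in G2A than in WT, and a log2 fold change below 0 like 47.3% of all genes. Their means lay between 61.2% of the WT mean for Alad and 84.6% for Cpox. No member passed: limma, fitted on log2(FPKM + 1) over 12938 genes with Benjamini-Hochberg adjustment and a threshold of 0.05, gave a smallest adjusted p of 0.0902 (Tmem14c). With that test 0.00773% of all genes were lower and 0.0155% higher. At an unadjusted p under 0.05, 4 of the 9 were lower (Tmem14c, Slc25a38, Urod and Uros) and none higher, beside 12.4% of all genes lower and 9.07% higher. The same 4 had no overlap between the G2A and the WT livers, against 15.7% of all genes that were lower without overlap. The median log2 fold change of the 9 was -0.41 and that of all genes tested 0.01. Bulk RNA cannot tell fewer red cells from less mRNA per red cell.

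G2A livers 1 and 2 accounted for most of that difference. Both lay below all 3 WT livers for 9 of the 9 genes, as they did for 27.3% of all genes, and G2A liver 2 was the lowest of the 6 livers each time. G2A liver 3 was above both other G2A livers for all 9, against 34.7% of all genes, and for 5 of them (Alas2, Alad, Cpox, Ppox and Fech) it lay within the range of the WT livers. The mean deviation of the 9 genes from the WT mean was -0.54, -0.80 and -0.06 in G2A livers 1, 2 and 3, and -0.07, -0.05 and 0.13 in WT livers 1, 2 and 3, on the log2(FPKM + 1) scale. Without G2A liver 3, limma called 7 of the 9 lower (all but Alas2 and Alad), beside 12.2% of all genes lower and 12.3% higher, with a median of -0.63. The largest of these 7 in size was Urod at -0.83 (limma adjusted p = 0.0127), and the smallest adjusted p was that of Slc25a38, at -0.55 (limma adjusted p = 0.00971). With library weights, which gave G2A liver 3 the lowest weight, all 9 were called lower, beside 20.7% of all genes lower and 26.1% higher. Leaving out G2A liver 2 moved the median to -0.28, with 0 of the 9 called.

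**Figure D1:**
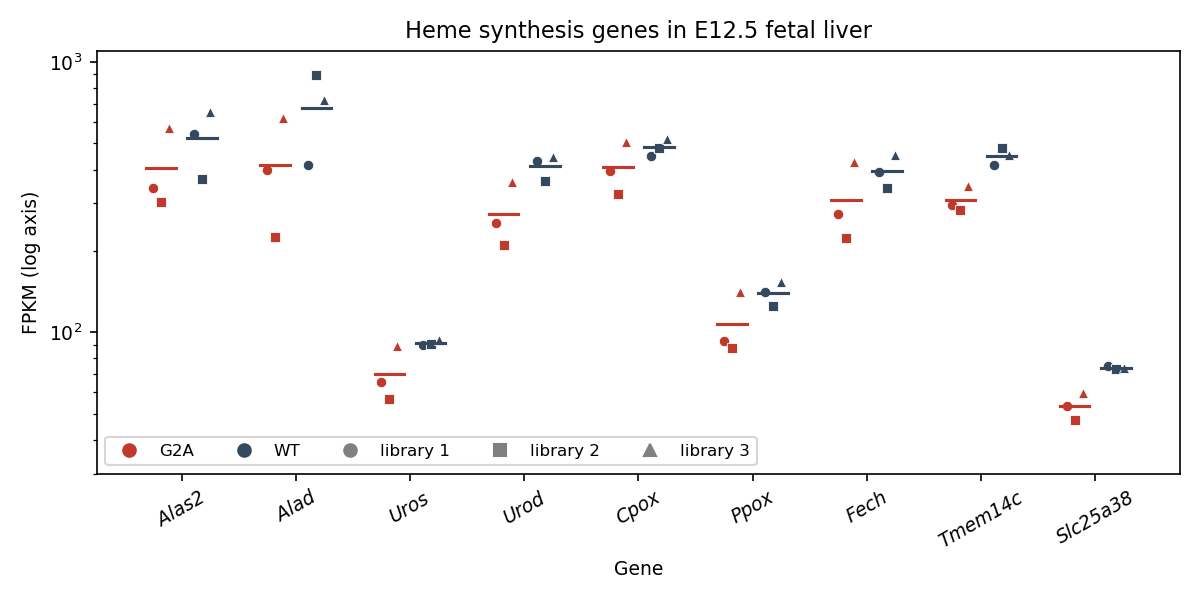
FPKM of the 9 heme synthesis genes in each liver (log axis), with G2A in red to the left of WT in dark blue; symbols mark library 1, 2 and 3 and bars the group means (n = 3 each). G2A livers 1 and 2 lie below all WT livers for every gene, while G2A liver 3 (red triangles) lies among the WT livers for 5 genes and below them for Uros, Urod, Tmem14c and Slc25a38.

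The genes of the first step had similar fold changes but unlike spreads. Alas2 (ENSMUSG00000025270.7, protein coding, plus strand of chromosome X, positions 146981918 to 147005181 in the mm9 assembly, NCBIM37) had 343, 304 and 569 FPKM in G2A livers 1, 2 and 3, against 542, 369 and 654 FPKM in WT livers 1, 2 and 3. The groups overlapped, with WT liver 2 low and G2A liver 3 high. Its log2 fold change was -0.38 (SE 0.30, 95% confidence interval -1.10 to 0.34, limma adjusted p = 0.483), an interval that includes both no difference and values beyond the fold change of any other member. Slc25a38, the glycine carrier (ENSMUSG00000032519.5, plus strand of chromosome 9, positions 120019492 to 120033622), was at 53.3, 47.6 and 59.7 FPKM in the G2A livers, against 75.1, 73.1 and 73.6 FPKM in the WT livers. Here every G2A liver was below every WT liver, G2A liver 3 included. The WT livers spanned only 2 FPKM, and the log2 fold change was -0.47 (SE 0.09, interval -0.67 to -0.26, limma adjusted p = 0.0914).

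Of the cytosolic enzymes, Alad, which condenses aminolevulinate into porphobilinogen, had the widest spread. It was at 397, 226 and 619 FPKM in G2A livers 1, 2 and 3 and at 416, 892 and 723 FPKM in WT livers 1, 2 and 3 (chromosome 4, minus strand, 62170203 to 62180952). WT liver 1 lay within the range of the G2A livers, and the log2 fold change of -0.76 had an interval of -1.79 to 0.28 (limma adjusted p = 0.350). Uros, which closes the ring as uroporphyrinogen III, was at 65.2, 56.7 and 89.1 FPKM in the G2A livers, against 89.3, 90.3 and 93.8 FPKM in the WT livers (chromosome 7, minus strand, 140877926 to 140901755). G2A liver 3 was below the lowest WT liver by less than 1 FPKM, so the absence of overlap rests on a small gap. Urod, the next enzyme, which removes carboxyl groups, was at 253, 210 and 360 FPKM in the G2A livers and at 432, 362 and 443 FPKM in the WT livers (chromosome 4, minus strand, 116662570 to 116667018). Again G2A liver 3 lay just under the lowest WT liver. The log2 fold changes were -0.39 (SE 0.16, limma adjusted p = 0.223) for Uros and -0.62 (SE 0.20, limma adjusted p = 0.161) for Urod.

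Tmem14c was the gene of the mitochondrial end of the pathway whose groups stood furthest apart relative to their spread. It was at 297, 282 and 348 FPKM in G2A livers 1, 2 and 3, against 415, 481 and 452 FPKM in WT livers 1, 2 and 3 (ENSMUSG00000021361.6, chromosome 13, plus strand, 41111619 to 41117944). No G2A liver reached the WT range, and G2A liver 3 was lower than the WT mean by a log2 deviation of -0.36. The log2 fold change was -0.54 (SE 0.10, interval -0.78 to -0.30, limma adjusted p = 0.0902). Cpox, which makes protoporphyrinogen IX, was at 396, 324 and 508 FPKM in the G2A livers and at 450, 482 and 520 FPKM in the WT livers (chromosome 16, plus strand, 58670321 to 58680504). Ppox, which oxidizes it, was at 92.8, 87.6 and 141 FPKM in the G2A livers and at 141, 125 and 153 FPKM in the WT livers (chromosome 1, minus strand, 173206121 to 173211317). Fech, which inserts the iron, was at 275, 224 and 426 FPKM in the G2A livers and at 391, 341 and 452 FPKM in the WT livers (chromosome 18, minus strand, 64616204 to 64648720). For all 3 of these enzymes G2A liver 3 was within the WT range, and the log2 fold changes were -0.26 (interval -0.66 to 0.13) for Cpox, -0.41 (-0.86 to 0.05) for Ppox and -0.40 (-0.98 to 0.18) for Fech. Their limma adjusted p-values were 0.387, 0.271 and 0.376.

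The order of levels put most of the pathway within a narrow band. In WT liver the means ran from Alad (677 ± 241 FPKM) through Alas2 (522 ± 144), Cpox (484 ± 34.9), Tmem14c (449 ± 32.9) and Urod (413 ± 43.8) to Fech (395 ± 55.7 FPKM, SD, n = 3), and each neighbour in that order overlapped the next. Ppox (140 ± 14.0), Uros (91.1 ± 2.35) and Slc25a38 (73.9 ± 1.03 FPKM) followed, without overlap between neighbours or with Fech. Across all tested genes these WT levels ranked from 166 (Alad) to 1396 (Slc25a38) of 12938. In G2A liver Ppox, Uros and Slc25a38 were again the lowest at 107 ± 29.5, 70.3 ± 16.8 and 53.5 ± 6.07 FPKM (SD, n = 3), there with overlap between neighbours.

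Over the 6 livers the 9 genes moved together to different degrees. Pearson's r between pairs had a median of 0.87 and ran from 0.53 to 0.98 over 36 pairs, as a description of 6 points that share their libraries and the genotype difference. Genes of like pattern were sought among 7056 genes with a mean of at least 10 FPKM, outside the pathway and marker lists described below. The closest to the mean pattern of the 9 were Odc1 (r = 0.9995), Gypc (0.9986), Sipa1 (0.9980), Ifi35 (0.9962) and Ubac1 (0.9958). Odc1, the first enzyme of polyamine synthesis, was at 318, 262 and 452 FPKM in the G2A livers and at 464, 451 and 515 FPKM in the WT livers. Gypc, a red cell membrane glycoprotein, was at 86.9, 74.0 and 121 FPKM in the G2A livers, against 122, 118 and 136 FPKM in the WT livers. In both, as in most of the 9, G2A livers 1 and 2 were low and G2A liver 3 was close to WT. They were picked for this pattern, so sharing it is no separate result.

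The mean of the red cell markers had deviations close to those of the mean of the heme synthesis genes in each liver. All 13 measured erythroid markers, which include Slc4a1, were below 0 in log2 fold change (median -0.45, 0 called), and their mean deviation was -0.63, -0.81 and 0.08 in G2A livers 1, 2 and 3 and 0.03, -0.21 and 0.19 in WT livers 1, 2 and 3. The summed level of these markers was 1526 to 2937 FPKM in G2A and 2305 to 3167 FPKM in WT livers. At an unadjusted limma p under 0.05, 1 of the 13 was lower, against 4 of the 9 heme synthesis genes and 12.4% of all genes. Lower without overlap were 0 of the 13, against 4 of the 9 and 15.7% of all genes. With the erythroid marker mean subtracted in each liver, the mean of the 9 heme synthesis genes was at 0.09, 0.00 and -0.14 in G2A livers 1, 2 and 3 and at -0.10, 0.16 and -0.06 in WT livers 1, 2 and 3, relative to the WT mean. On that scale the G2A mean was -0.02 ± 0.12 and the WT mean 0 ± 0.14 (SD, n = 3 each), so the difference between genotypes was smaller than the spread within them. The 10 erythroid regulators had log2 fold changes from -0.69 (Klf1) to 0.04 (Ldb1). Gata1 and Epor were at -0.57 and -0.48, and Zfpm1 and Jak2 at -0.12 and -0.13. Against the mean of these 10, the mean of the 9 heme synthesis genes was at -0.10, -0.25 and -0.03 in G2A livers 1, 2 and 3. In WT livers 1, 2 and 3 it was at -0.03, -0.04 and 0.08. A difference from this mean is thus not one from each regulator. There the G2A mean was -0.13 ± 0.11 and the WT mean 0 ± 0.07 (SD, n = 3 each), a difference larger than either spread, with G2A liver 3 within the range of the WT livers. Which of the 2 lists better stands for the number of red cells was not tested.

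Single genes kept different offsets from the red cell markers. Relative to the erythroid marker mean, Alas2 was at 0.07, 0.07 and 0.08 in G2A livers 1, 2 and 3 and at 0.07, -0.25 and 0.18 in WT livers 1, 2 and 3. Fech stayed within 0.12 of the WT mean in all 6 livers, unlike Alas2 in WT livers 2 and 3. Urod was at -0.07, -0.16 and -0.27 in the G2A livers and at 0.05, 0.03 and -0.08 in the WT livers, which overlap. Tmem14c was at 0.04, 0.14 and -0.44 in the G2A livers and Slc25a38 at 0.16, 0.18 and -0.38, so that both stood below the red cell markers in G2A liver 3 and not in the other G2A livers. In the WT livers these 2 genes lay at -0.14, 0.31 and -0.18 (Tmem14c) and 0.00, 0.20 and -0.19 (Slc25a38).

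**Figure D2:**
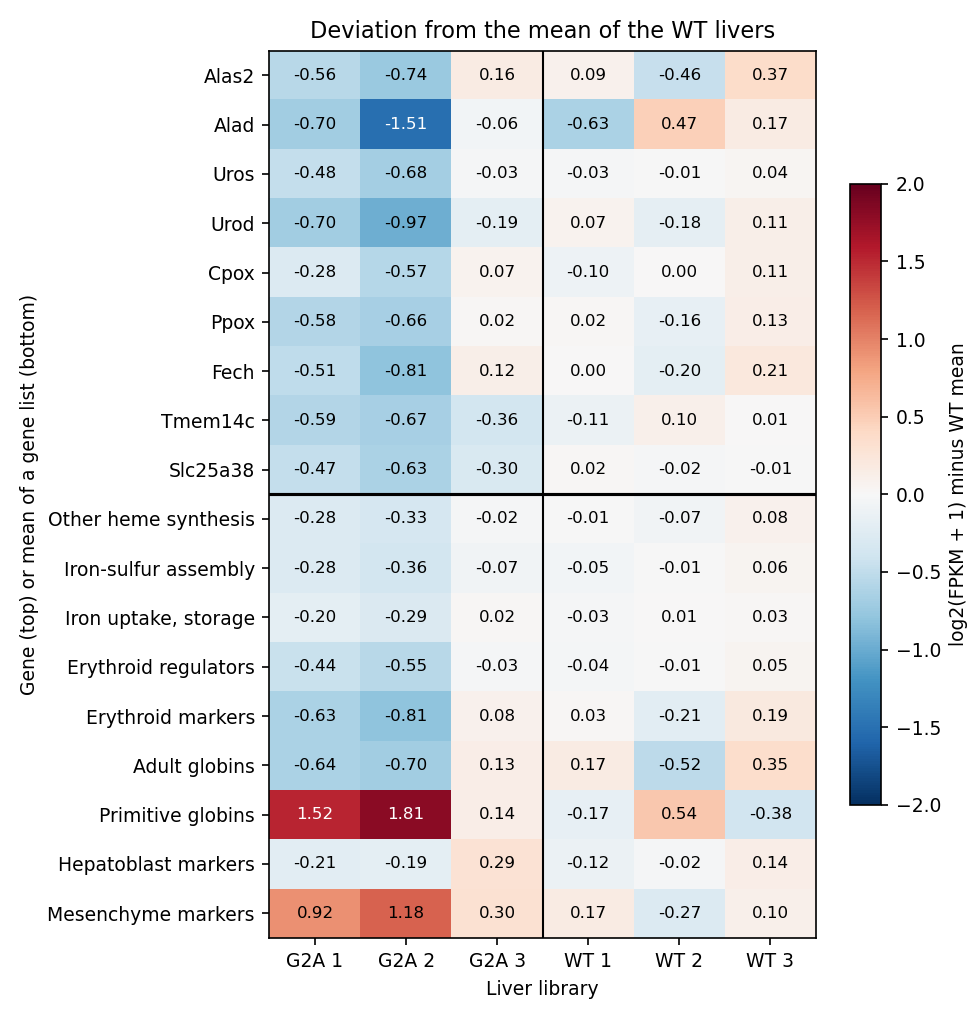
Deviation of log2(FPKM + 1) from the mean of the WT livers in each liver (columns, G2A left of WT), for each heme synthesis gene (above the line) and for the mean of 9 gene lists (below it); red is higher and blue lower. In G2A livers 1 and 2 the heme synthesis genes and the means of the erythroid markers (-0.63 and -0.81) and adult globins (-0.64 and -0.70) are below the WT mean. The means of the primitive globins (1.52 and 1.81) and mesenchyme markers (0.92 and 1.18) are above it. The adult globin mean rests on 3 tested genes, with Hbb-b1 at -0.11 and 0.30 in these livers, and is -0.52 in WT liver 2.

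Markers of other cell types also differed in level between the livers, with 0 genes of any marker list past the test (smallest limma adjusted p = 0.0902, in the mesenchyme list). Their part in the result was not tested. The 3 embryonic globins of primitive red cells summed to 52352, 67999 and 22747 FPKM in G2A livers 1, 2 and 3, against 15659, 26761 and 14637 FPKM in WT livers 1, 2 and 3. Mesenchyme and fibroblast markers summed to 1528, 2175 and 1058 FPKM in the G2A livers and to 790, 574 and 764 FPKM in the WT livers, with 9 of 10 above 0, 5 of 10 higher at an unadjusted p under 0.05 (limma; 9.07% of all genes) and a median log2 fold change of 0.70. WT liver 2 had the most primitive globin of the WT livers. It also had the least adult globin (13291 FPKM, against 21536 and 21601 FPKM in WT livers 1 and 3). It was the lowest WT liver for Alas2, Urod, Ppox, Fech and Slc25a38, but the highest for Alad and Tmem14c. WT liver 1 was the lowest for Uros and Cpox. The mean deviation of the 9 heme synthesis genes was -0.07 and -0.05 in WT livers 1 and 2. Hepatoblast markers had a median of -0.05, megakaryocyte markers 0.08, macrophage markers -0.10, progenitor markers 0.16 and endothelial markers 0.25.

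The rest of the pathway was mostly below 0 in liver too, with no gene past the test. Of 12 other genes of heme synthesis and mitochondrial import, 9 were below 0 (median log2 fold change -0.19; at an unadjusted p under 0.05, 4 lower and 1 higher, beside 12.4% and 9.07% of all genes). Alas1, the form of the first enzyme found in every tissue, was at 12.8, 13.2 and 12.8 FPKM in the G2A livers and at 14.8, 14.1 and 15.4 FPKM in the WT livers (log2 fold change -0.18, limma adjusted p = 0.187). Alas1 was thus far below Alas2 in every liver, and its G2A livers differed from each other by less than 1 FPKM. Slc25a37, the mitochondrial iron importer mitoferrin-1, was at 395, 374 and 703 FPKM in the G2A livers and at 690, 521 and 764 FPKM in the WT livers (limma adjusted p = 0.358).

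Genes that build iron-sulfur clusters (mammalian Fech carries such a cluster) were below 0 for 9 of 10 (median -0.27), and 5 of the 10 were lower without overlap, beside 15.7% of all genes. Glrx5, a glutaredoxin of cluster transfer, was at 270, 241 and 340 FPKM in G2A livers 1, 2 and 3, against 378, 390 and 428 FPKM in WT livers 1, 2 and 3 (log2 fold change -0.50, limma adjusted p = 0.127). Isca2 and Nfs1 had log2 fold changes of -0.35 each. Iron uptake and storage genes were below 0 for 8 of 9 (median -0.15), with Steap3, the endosomal iron reductase, at 41.8 ± 7.27 FPKM in G2A and 58.5 ± 8.78 FPKM in WT liver (SD, n = 3 each; limma adjusted p = 0.159).

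Of 10 genes of heme export, breakdown and sensing, 7 were below 0 and 3 above (median -0.19). Hmox1, which opens the heme ring and is also induced by stress, was at 185, 164 and 165 FPKM in G2A livers 1, 2 and 3, against 115, 112 and 108 FPKM in WT livers 1, 2 and 3. All G2A livers were above all WT livers, G2A liver 3 among them, and the log2 fold change was 0.61 (SE 0.07, limma adjusted p = 0.0811). Blvrb, a biliverdin reductase abundant in red cells, was at 515, 474 and 760 FPKM in the G2A livers and at 837, 768 and 858 FPKM in the WT livers (log2 fold change -0.52, limma adjusted p = 0.173). Among the 10 erythroid regulators 9 were below 0 (median -0.37). The smallest p was that of the erythropoietin receptor Epor, at 69.2 ± 10.4 FPKM in G2A and 96.1 ± 2.57 FPKM in WT liver (SD, n = 3 each; limma adjusted p = 0.107).

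In MEFs, cells that do not make hemoglobin, heme synthesis genes were split between the directions. With limma 0 genes of 13241 passed (0% in either direction), and 913 were higher and 990 lower at an unadjusted p under 0.05 (6.9% and 7.48%). DESeq2 on the recovered reads called 391 higher and 644 lower and edgeR none, and neither called any of the 9, beside 2.95% and 4.86% of all genes for DESeq2. Of the 9, 6 were above 0 and 3 below, beside 51.6% and 48.4% of all genes (median log2 fold change 0.24, all genes 0.01). The signs of Alas2, Ppox, Fech and Tmem14c turned when 1 WT library was left out, the first to -0.03 without WT MEF 1, and the median of the 9 was 0.05 without WT MEF 1. Of the 9, Cpox alone was under 0.05 before adjustment. The groups did not overlap for Alad and Cpox, higher in G2A, and for Uros, lower in G2A, beside 18.9% and 18% of all genes. Library weights called Alad (0.28, limma adjusted p = 0.0201) and Cpox (0.40, limma adjusted p = 0.00649) higher and Tmem14c lower (-0.24, limma adjusted p = 0.0498), beside 23.8% of all genes higher and 22.5% lower. The weights were 3.52, 0.486 and 0.12 for WT MEFs 1, 2 and 3 and 2.21 for each G2A library. WT MEF 3, which thus counted least, was below both G2A libraries for Tmem14c. Without WT MEF 3, 11.9% of all genes were called higher and 11.8% lower, and none of the 9.

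Cpox was at 1529 and 1592 normalized reads in G2A MEFs 1 and 2, against 1160, 1300 and 1234 in WT MEFs 1, 2 and 3. Its log2 fold change was 0.34 (SE 0.12, interval 0.05 to 0.64, limma adjusted p = 0.314). Alad was at 1550 and 1531 normalized reads in the G2A MEFs and at 1256, 1356 and 1171 in the WT MEFs (log2 fold change 0.29, interval -0.02 to 0.60, limma adjusted p = 0.360). Both thus had narrow groups, a contrast with the spread of Alad among the livers. Uros was at 156 and 131 normalized reads in the G2A MEFs, against 185, 188 and 236 in the WT MEFs (log2 fold change -0.49, interval -1.15 to 0.16, limma adjusted p = 0.435). It was the only member lower in G2A in both tissues by more than 0.3 on the log2 scale.

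The other members overlapped between the MEF genotypes. Urod was at 1008 and 880 normalized reads in G2A MEFs 1 and 2 and at 885, 685 and 708 in WT MEFs 1, 2 and 3 (log2 fold change 0.32). Slc25a38 was at 741 and 645 in the G2A MEFs and at 707, 612 and 466 normalized reads in the WT MEFs (0.24). Here, as for Tmem14c, WT MEF 3 was the lowest library. Tmem14c was at 1809 and 1799 normalized reads in the G2A MEFs and at 2173, 2068 and 1464 in the WT MEFs (-0.06). Fech was at 3072 and 3019 in the G2A MEFs and at 3439, 3016 and 3029 normalized reads in the WT MEFs (-0.05), and Ppox at 762 and 774 in the G2A MEFs and at 757, 649 and 919 in the WT MEFs (0.00). The smallest limma adjusted p of these 5 genes was 0.447.

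Alas2 was near the floor of these libraries, with 30 and 33 reads in G2A MEFs 1 and 2 and 13, 22 and 46 reads in WT MEFs 1, 2 and 3. In the NCBIM37 annotation 311 bases, 12.9% of its exon sequence, are shared with Apex2, and 17.5% of the exon sequence of Ppox is shared with B4galt3. Whether the counting used strand is not given in the sources used here, so reads of these neighbours cannot be told apart from those of Alas2 and Ppox. Per kilobase of merged exons the WT order in MEFs was Tmem14c (2012 ± 405 normalized reads per kilobase, SD, n = 3), Fech (1090 ± 83.0), Alad (674 ± 49.5), Cpox (386 ± 21.9), Urod (293 ± 42.3), Slc25a38 (217 ± 44.1), Ppox (172 ± 30.1), Uros (56.8 ± 7.95) and Alas2 (11.0 ± 6.34). Only Slc25a38 and Ppox among these neighbours overlapped. Alas2, rank 2 of the 9 in WT liver, was thus last in MEFs, where Tmem14c, rank 4 in WT liver, came first. The liver order rests on FPKM and the MEF order on reads per kilobase of merged exons, which are unlike measures.

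**Figure D3:**
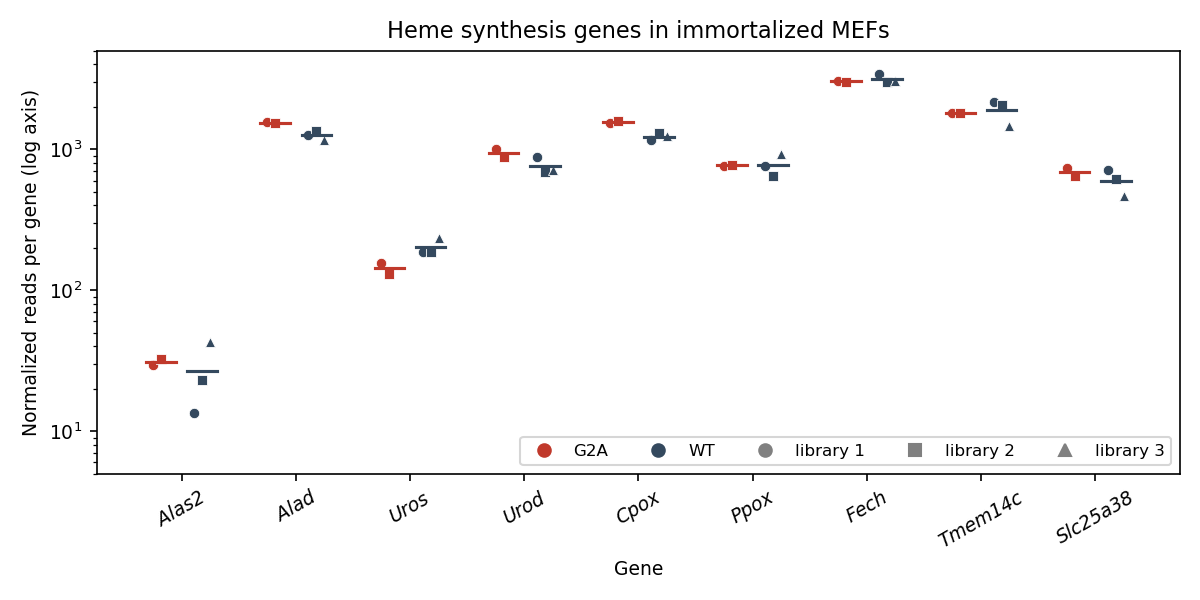
Normalized reads per gene of the 9 heme synthesis genes in each MEF library (log axis), with G2A in red (n = 2) to the left of WT in dark blue (n = 3); symbols mark library 1, 2 and 3 and bars the group means. Cpox and Alad are higher and Uros lower in both G2A libraries, and Alas2 has 13.4 to 43.2 normalized reads in WT and 29.6 and 32.4 in G2A libraries.

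The G2A effect in liver was then set against that in MEFs by subtracting the MEF log2 fold change, with the standard errors of both combined. The tables have different units and were normalized separately, so beyond the order of the 9 genes no level was compared across them. None of the 9 passed over 10818 genes tested in both tissues, of which 0.869% were past the threshold with a lower and 1.34% with a higher effect in liver. At an unadjusted p under 0.05, 4 of the 9 had a lower effect in liver (Urod, Cpox, Slc25a38 and Alad), beside 12.1% of all genes. For Urod the difference was -0.94 (SE 0.27, interval -1.52 to -0.36, adjusted p = 0.0770 by the test on limma's estimates). Cpox had a difference of -0.60 (interval -1.05 to -0.16) and Slc25a38 one of -0.70 (-1.28 to -0.13), with adjusted p-values of 0.107 and 0.147 on limma's estimates. Leaving out G2A liver 3 took Urod (-1.15, adjusted p = 0.0194 on limma's estimates) and Cpox (-0.77, adjusted p = 0.0218) past the threshold, beside 3.73% of all genes lower and 5.17% higher in liver. Leaving out WT MEF 3 took Urod, Cpox and Slc25a38 past it (adjusted p = 0.0245, 0.0383 and 0.0434 on limma's estimates), beside 15.6% of all genes lower and 14.8% higher. The difference of Uros was 0.10 (-0.59 to 0.79), and for Alas2 the interval of -2.37 to 0.88 was the widest. Hmox1 had a difference of 0.82, higher in liver (adjusted p = 0.0760 on limma's estimates).

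**Figure D4:**
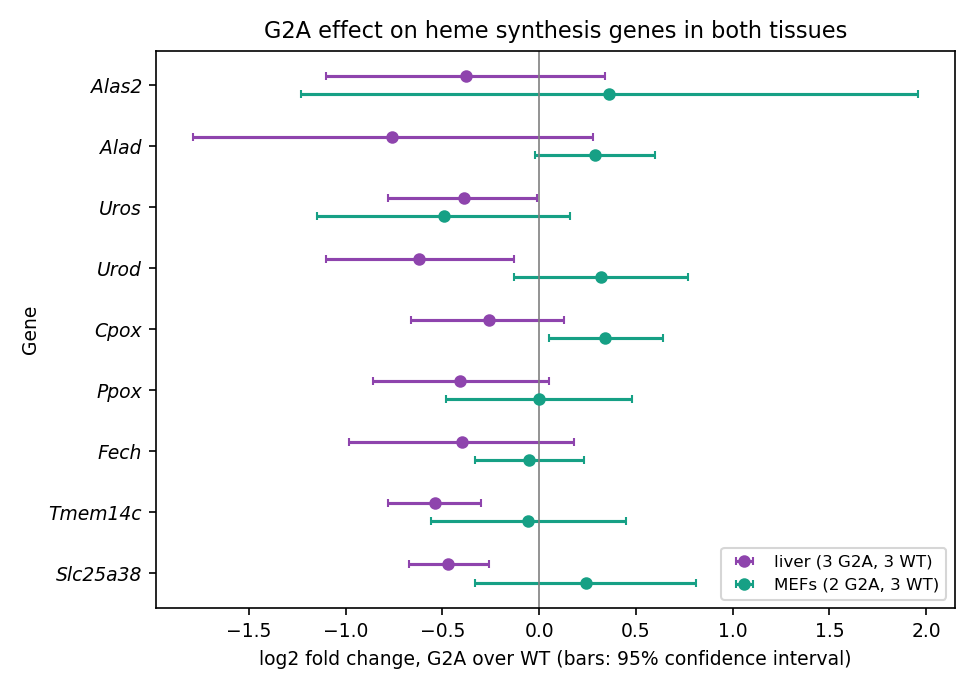
Log2 fold change of G2A over WT for each heme synthesis gene in liver (purple, 3 libraries per genotype) and MEFs (green, 2 G2A and 3 WT libraries), with 95% confidence intervals from limma as bars. In liver the intervals of Uros, Urod, Tmem14c and Slc25a38 lie below 0, in MEFs that of Cpox lies above 0, and Alas2 has the widest interval in MEFs (-1.23 to 1.96).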

How the data were processed

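Total RNA was sequenced by BGI, per the labels. The labels' protocols state trimming of reads to 50 bp and mapping to mm9 with TopHat 2.1.1; Cufflinks 2.2.1 and mm10 also stand in the submitters' processing notes. Liver values are taken to be FPKM computed by the authors, from the mention of Cufflinks and the fractional values, since the file header gives no unit. The MEF values are a signal deposited as normalized reads: 100% of values were whole within 0.01 after division by each library's smallest value above 0. The sources used here do not give the annotation, the counting tool or the use of strand.

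Genotype was fitted to log2(value + 1) in each tissue separately by limma 3.58.1 (R 4.3.3, variance trend), over genes with at least 1 FPKM in 3 livers or 10 normalized reads in 2 MEF libraries. Benjamini-Hochberg adjustment ran over all genes, with a threshold of 0.05. Liver and MEF effects were compared with Satterthwaite degrees of freedom. The recovered reads were tested with edgeR 4.0.16 and DESeq2 1.42.0 as alternatives. Scripts were tested on simulated data. Gene positions are from GENCODE vM1 (NCBIM37), promoters from RefSeq (GRCm38.p6). Named were the 9 genes, Psmc1, Alas1, Slc25a37, Hmox1, up to 3 genes with the smallest liver p from each pathway list, and the 5 genes of most similar pattern; not every gene selected is reported. The members and lists were chosen with earlier results of these data known. Fold changes on the log2(value + 1) scale understate changes of genes at low values.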

Additional observations from a re-analysis of the deposited data

How the results depend on the processing

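In liver the log2 fold change of each of the 9 heme synthesis genes stayed below 0 in every alternative tried. Their median ran from -0.63 (without G2A liver 3) to -0.28 (without G2A liver 2) when 1 library was left out, was -0.32 with quantile normalization and -0.34 without globins and small RNA genes. Library weights, which gave G2A livers 1, 2 and 3 weights of 6.22, 0.74 and 0.176, called all 9 lower, beside 20.7% of all genes (2681 lower, 3376 higher). Leaving out 1 liver gave 0 to 7 of the 9 lower, with 0 to 1562 genes lower and 0 to 1578 higher in all, the high ends without G2A liver 3. Genes higher numbered 1 without globins and small RNA genes, with 0 lower.

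The sample number in the titles was tried as a replicate block. Deviations of same-numbered livers correlated at 0.18, -0.10 and 0.10, against -0.22 to 0.13 for livers of unlike number. Those of same-numbered MEFs correlated at 0.13 and -0.03, against -0.13 to 0.09. With so few libraries these values cannot show whether the numbers pair samples. The labels give 3 pairs of littermate livers but not that the number marks the pair, so the main fits used no block and leave the litter out. With the block, 1 gene was higher in liver and 0 of the 9 were called. There the limma adjusted p of Alas2 fell from 0.483 to 0.173 and that of Fech from 0.376 to 0.177. For Tmem14c it rose from 0.0902 to 0.156. In MEFs, where the block leaves out WT MEF 3, 1915 genes were higher and 1869 lower, the median of the 9 was 0.13, and 0 of the 9 were called. The difference between tissues then had 1806 genes higher and 1910 lower in liver, among the latter 4 of the 9.

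In MEFs, DESeq2 called 391 genes higher and 644 lower, library weights 3149 and 2975, among them 2 of the 9 higher (Alad and Cpox) and 1 lower (Tmem14c). Leaving out 1 library gave 0 to 1544 genes higher and 0 to 1532 lower, the high ends without WT MEF 3, with 0 of the 9 called; over these fits Alas2 reached 0.78 and Tmem14c -0.23, both without WT MEF 3. Where 1 G2A library was left, it was assumed to vary like the WT libraries. The median of the 9 ran from 0.05 to 0.30 without 1 library and was 0.12 with a stricter filter (8 genes) or quantile normalization and 0.04 with library weights. Genes near 0 changed sign. Ppox was at 0.00 with median-ratio scaling, -0.01 with edgeR, -0.02 with DESeq2, -0.01 without G2A MEF 2 or WT MEF 1 and -0.12 without WT MEF 2. Without WT MEF 1 Alas2 was at -0.03, Fech at 0.01 and Tmem14c at 0.05, and without WT MEF 2 Tmem14c was at 0.02.

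For the difference between tissues, 145 genes were higher and 94 lower in liver as reported; the counts were 26 and 3 with no filter, 16 and 3 with no variance trend, and 3200 and 2951 with library weights (8 of the 9 lower). Lower genes numbered 50 without globins and small RNA genes. Leaving out 1 library gave 2 to 1586 genes higher and 0 to 1676 lower, and 0 to 3 of the 9 lower (Urod and Cpox without G2A liver 3 and, with Slc25a38, without WT MEF 3). The difference of Uros was -0.11 with library weights, -0.01 with the block, -0.08 without G2A liver 3, -0.02 without G2A MEF 2, -0.01 without WT MEF 3 and at its highest 0.24 without G2A liver 2. The mean of the 9 relative to red cell markers ran from -0.07 to 0.06 without 1 liver. In the 100 bases before the start, AGATAA or TGATAA stood in 3 genes (Alas2, Uros and Cpox), or 3 of the 10 promoters, beside 6.2% of all promoters. AGATAA by itself stood there in 1 gene (Alas2), or 1 of the 10 promoters, beside 3.6%. CACCC stood there in 4 genes (Alas2, Alad, Cpox and Tmem14c), or 4 of the 10 promoters, beside 27.2%. The cause of these shifts was not tested. The number of libraries limits the tests. Alas2 in MEFs, at 13 to 46 reads, ran from -0.03 (without WT MEF 1) to 1.02 (library weights, limma adjusted p = 0.0512).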

Other observations

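Alad varied between livers of the same genotype more than the other heme synthesis genes. Its standard deviation within genotypes was 0.65 on the log2(FPKM + 1) scale, rank 70 of 1988 genes with a mean of at least 50 FPKM, whose median was 0.09. For Alas2 it was 0.45 (rank 102), and for Tmem14c and Slc25a38 0.13 and 0.11 (ranks 639 and 787). The log2 level of Alad minus the mean of the other 8 genes was 1.17, 0.55 and 1.35 in G2A livers 1, 2 and 3, against 0.72, 1.93 and 1.39 in WT livers 1, 2 and 3. WT livers 1 and 2 thus held the second lowest and the highest of the 6 values, in the opposite order to Alas2, which was higher in WT liver 1 than in WT liver 2. These values were examined after the spread of Alad had been seen.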
